A study of Mus musculus with 10 samples.

Results

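Peritoneal macrophages from aged mice labelled Trem1-/- were set against macrophages from young wild-type mice, to see which transcripts stood apart from the young level. The comparison ran over every gene of the deposited table and used 7 of the 10 libraries of the study. Of these, 3 came from aged mice of genotype Trem1-/- (replicates 1, 2 and 3) and 4 from young mice of genotype wild type (replicates called A, B, C, E). A further 3 libraries from aged wild-type mice (replicates 3, 4 and 6) entered the shared estimate of the spread, and their levels are given beside some genes. All were primary mouse peritoneal macrophages with no treatment named. The ages in months, the strain, the sex, the way the cells were isolated and the stretch of Trem1 that was deleted are not given in the labels. Nothing there ties each library to a mouse of its own, so p-values reflect the scatter of these samples alone, and that scatter may be technical. Both age and genotype separate the groups, and with no young Trem1-/- group their parts cannot be told apart. In the text, values in a series follow the order 1, 2, 3 for the aged Trem1-/- libraries, A, B, C, E for the young and 3, 4, 6 for aged wild type.

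TREM1 is a cell-surface receptor of myeloid cells that signals through the adaptor DAP12 (Tyrobp) and the kinase SYK and is known for amplifying inflammatory responses. Resident macrophages of the peritoneal cavity, marked by the transcription factor GATA6, maintain themselves in part by dividing in place. In a dividing cell, E2F factors switch on the genes of DNA synthesis first, and complexes with B-MYB and FOXM1 then switch on the genes of mitosis, acting at promoters that carry a short element called CHR. In resting cells the DREAM complex holds both sets down.

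Of the 38 genes lower in the aged Trem1-/- libraries, 22 act in the cell cycle by their known roles. That assignment was made by hand after the calls were seen and was not made for the higher genes or for all genes tested, so no background share stands beside it; the lists of S phase and mitosis genes used below hold 4 of the 38. Promoters of 4 of them are printed from RefSeq (GRCm38.p6) because each holds the CHR letters TTTGAA, which read TTCAAA on the opposite strand; capitals mark these letters, and bases that lie in an annotated exon are left out. E2f8 encodes a repressive E2F factor (chr7:48881597-48881656, minus strand), Kif2c a kinesin that takes apart microtubule ends (chr4:117178830-117178915, minus strand), Ncapg a subunit of condensin (chr5:45669855-45669918, plus strand) and Kif22 a kinesin of chromosome arms (chr7:127042472-127042670, minus strand). The Kif2c stretch lies ahead of a RefSeq start but inside the gene as GENCODE places it (chr4:117159639-117182639). It is thus not the stretch before the 5' end of that gene model, while the other stretches adjoin the 5' ends of their genes.
E2f8: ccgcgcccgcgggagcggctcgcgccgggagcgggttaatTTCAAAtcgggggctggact
Kif2c: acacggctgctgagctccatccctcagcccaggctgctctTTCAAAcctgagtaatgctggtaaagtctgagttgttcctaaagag
Ncapg: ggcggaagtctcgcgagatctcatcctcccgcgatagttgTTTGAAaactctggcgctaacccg
Kif22: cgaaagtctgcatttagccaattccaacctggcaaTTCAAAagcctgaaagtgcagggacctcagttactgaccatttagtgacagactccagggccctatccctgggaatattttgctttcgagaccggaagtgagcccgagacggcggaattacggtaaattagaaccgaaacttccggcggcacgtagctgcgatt
The letters TTTGAA, searched on both strands of the 300-base window around each RefSeq start, stood in 8 of the 16 of these cell-cycle genes that had a promoter entry (50%) and in 14.6% of the 8627 tested genes with an entry. Among the 27 genes with an entry that were lower they stood in 10 (37.0%), and among the 51 that were higher in 9 (17.6%). In a list of mitosis and spindle genes, 16 of 21 members with an entry held them (76.2%), and 18 of 21 held the letters CCAAT (85.7%, beside 43.3% of tested genes). An E2F motif, TTTGGCGC or TTTCCCGC, stood in 8 of 24 DNA replication and S phase genes with an entry (33.3%, beside 3.63%). In that list TTTGAA stood in 3 of 24 (12.5%). Among the 27 lower genes the E2F motif stood in 2 (7.41%) and CCAAT in 13 (48.1%). Among the 51 higher genes these stood in 1 (1.96%) and 22 (43.1%). Most members of both lists were not among the genes called lower. A match describes the letters in the window and shows no binding.

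In each of the 7 libraries compared 2939414 to 5603498 reads were recovered, and in the aged wild-type libraries 2663744 to 3614156. Of 54532 genes, 11506 had enough for the test (10 or more normalized counts on average across all 10 libraries). Normalized counts were not scaled by gene length, so levels are compared between libraries and not between genes. Trem1 (ENSMUSG00000042265.13, chr17:48232768-48246924, plus strand, GRCm38) was counted in all 3 aged Trem1-/- libraries, at 23.5, 106 and 13.8 normalized counts (23, 132 and 12 reads), and in the young libraries at 14.8, 8.005, 12.01 and 24.4 (17, 13, 10 and 21 reads). The groups overlapped, and the ratio of the means was 3.22 (exact two-sided permutation p = 0.286; the smallest p that 3 against 4 libraries allow is 0.0571). Without replicate 2 that ratio was 1.26. The counts cover the whole gene and the labels do not say which part was deleted, so this level checks no label; the genotype is used here as labelled. Macrophage markers were counted in every library: Adgre1 (F4/80) stood at 4693, 4788 and 4227 against 4969, 4008, 4883 and 4968 normalized counts, and Csf1r at 3701, 3703 and 3711 against 4532, 4711, 4161 and 4212. On the first principal component of the 7 libraries (35.2% of the variance) the aged Trem1-/- libraries lay between -39.2 and -17.6 and the young between 10.6 and 37.6. On the second (20.3%) replicate 2 lay at -41.0, apart from the rest. That library and young replicate C also held more RNA of the mast cell list and of the mesothelial, epithelial and fibroblast list. Sums here and below cover all genes of a list in the deposited table, tested or not. The mast cell list (8 genes tested) summed to 2013 in replicate 2 and 1452 in young C against 243 to 452 in the other 5 libraries. The mesothelial, epithelial and fibroblast list (10 tested) summed to 647 and 604 against 38.8 to 153. The neutrophil marker Ly6g had no read in any of the 7 libraries (a count of 0 allows up to 3 reads, or 1.85 to 3.603 normalized counts). The neutrophil markers S100a9 and S100a8 had too few counts to be tested. S100a9 was at 2.04, 4.01 and 2.29 against 16.6, 11.1, 10.8 and 11.6, lower in every aged Trem1-/- library than in any young one. S100a8 was at 5.11, 3.20 and 1.15 against 6.97, 4.31, 9.61 and 3.49, where the groups overlapped.

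Of the 11506 genes tested, 106 (0.921%) differed between aged Trem1-/- and young libraries at an adjusted p under 0.05 (limma on log2(normalized count + 1), Benjamini-Hochberg adjustment over all genes tested). 68 (0.591%) were higher, 52 of them more than 2-fold, and 38 (0.33%) were lower, 34 of them more than 2-fold. The genes with the largest fitted differences were Chit1, higher, and Apoc1, lower, both at few counts in one group. In all 106 the ranges of the 2 groups did not overlap, which held for 15.8% of all genes tested. In the same fit, aged Trem1-/- and aged wild type differed in 2112 genes (18.4%; 11.5% higher and 6.82% lower), and aged and young wild type in 3837 (33.3%; 14.3% higher and 19.0% lower); these comparisons share libraries with the first. The median log2 difference from young over all genes tested was 0.01. For 8740 genes (76.0%) the 95% interval of the difference lay within 2-fold in both directions, and 2671 were neither called nor bounded in that way. An unadjusted p under 0.05 was reached by 1654 genes.

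The number of calls moved with single libraries. Without replicate 3 of the aged Trem1-/- group no gene passed (lowest adjusted p = 0.0541, limma; 1268 genes at an unadjusted p under 0.05). Without replicate 1, 11 genes were higher and 3 lower, and without replicate 2 the counts were 42 and 16. Leaving out young A, B, C or E gave 25 and 4, 55 and 69, 18 and 3, and 24 and 9. Leaving out aged wild type 3, 4 or 6, which enter through the spread alone, gave 108 and 93, 157 and 106, and 36 and 22. All 106 genes kept their direction in all 10 of these fits. In the other 9, genes that passed each time included AC133103.1, Cubn, Sdc4, Prdm1, Fgl2, Chit1, Cit, Loxl2 and Enpp5. DESeq2 on the recovered reads called 253 genes higher and 195 lower, and edgeR's quasi-likelihood test 52 and 28.

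**Figure D1:**
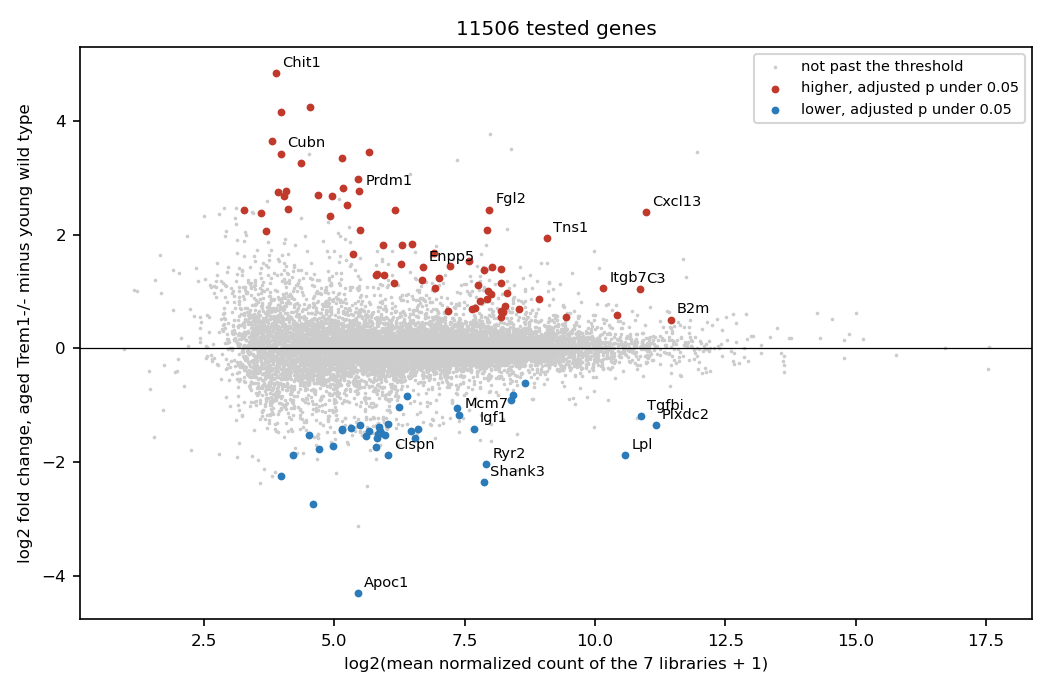
Log2 fold change, aged Trem1-/- minus young wild type (vertical axis), against the log2 of the mean normalized count of the 7 libraries plus 1 (horizontal axis) for the 11506 genes tested. The 68 higher genes (red) and 38 lower genes (blue) are marked, and most genes lie near a difference of 0.

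Genes of DNA synthesis and cell division were lower in the aged Trem1-/- libraries. Clspn, which encodes the replication checkpoint mediator claspin, stood at 21.5, 27.2 and 24.1 normalized counts in these libraries and 90.6, 58.5, 97.3 and 134 in the young. Every aged Trem1-/- library was below every young one, and the difference was a log2 fold change of -1.87 ± 0.26 (SE; adjusted p = 0.0113, limma). Cit, which encodes citron kinase of the cleavage furrow, was at 51.1, 42.5 and 34.4 against 133, 90.5, 137 and 158, a log2 fold change of -1.57 ± 0.20 (SE; adjusted p = 0.00905, limma). Young B had the lowest level of the young libraries in both genes, and it still lay above all 3 aged Trem1-/- values.

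Spindle and chromosome genes followed. Spag5, which encodes the spindle protein astrin, was at 27.6, 24.8 and 16.1 against 68.0, 56.7, 99.7 and 89.5, a log2 fold change of -1.74 ± 0.27 (SE; adjusted p = 0.019, limma). Kif22 was at 32.7, 25.6 and 26.4 against 75.8, 52.96, 92.5 and 124, a log2 fold change of -1.52 ± 0.27 (SE; adjusted p = 0.029, limma). Kif23, which encodes a kinesin of the central spindle and midbody, was at 48.0, 45.7 and 48.2 against 118, 85.0, 157 and 172, a log2 fold change of -1.42 ± 0.29 (SE; adjusted p = 0.0471, limma). The aged Trem1-/- values of Kif23 lay within 3 normalized counts of one another, while the highest young value was 2 times the lowest. Cdca2, which encodes a targeting subunit of protein phosphatase 1 on mitotic chromosomes, was at 33.7, 24.03 and 21.8 against 81.1, 49.9, 86.5 and 96.5, a log2 fold change of -1.51 ± 0.27 (SE; adjusted p = 0.029, limma). In each of the 4 genes young B was the young library nearest to the aged Trem1-/- values.

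Among factors that act at the start of S phase, E2f8 was at 25.5, 27.2 and 31.0 against 75.0, 61.6, 80.5 and 108, a log2 fold change of -1.48 ± 0.27 (SE; adjusted p = 0.0308, limma). Mcm7, a subunit of the replicative helicase, was at 105, 89.7 and 89.5 against 179.5, 161, 234 and 308, a log2 fold change of -1.17 ± 0.19 (SE; adjusted p = 0.026, limma). Tk1, the thymidine kinase of the salvage pathway, was at 56.2, 48.9 and 34.4 against 76.7, 83.1, 113 and 110.4, a log2 fold change of -1.03 ± 0.21 (SE; adjusted p = 0.0449, limma). All 3 genes share exon sequence with a neighbouring gene, and since strand-aware counting is not given in the sources used here, their values are uncertain to that extent. The replication-dependent histone genes Hist1h3c (45.0, 45.7 and 35.6 against 115, 73.9, 128 and 169.7) and Hist1h2bm (29.6, 19.2 and 22.9 against 62.8, 40.02, 76.9 and 98.8) were also lower, by 1.46 and 1.45 on the log2 scale (adjusted p = 0.0388 and 0.0449, limma). Cdkn2c, which encodes the inhibitor p18-INK4c of the kinases CDK4 and CDK6, was lower as well, at 38.8, 26.4 and 19.5 against 71.5, 49.9, 82.9 and 114, a log2 fold change of -1.45 ± 0.30 (SE; adjusted p = 0.0471, limma). It was the single called member among 20 tested genes of CDK inhibitors, p53 and senescence, a list whose median difference was -0.13.

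Most members of the cell-cycle lists lay below the young level without passing the threshold. Of 27 mitosis and spindle genes, 1 was called lower (Kif23) and none higher, yet all 27 had a difference below 0. All 27 had an unadjusted p under 0.05 (beside 1654 of 11506 genes in all). In 25 of them the groups did not overlap, beside 15.8% of all genes tested. The list's median was -1.34, beside 0.01 over all genes tested. Of 29 DNA replication and S phase genes, 3 were called lower (Mcm7, E2f8 and Tk1) and none higher, and 29 lay below 0. In this list 21 had an unadjusted p under 0.05, in 17 the groups did not overlap, and the median was -0.91. For members that did not pass, Mki67, the proliferation marker Ki-67, was at 553, 584 and 387 against 1123, 863, 1247 and 2358 (adjusted p = 0.0955, limma), and Top2a, which encodes DNA topoisomerase II alpha, at 186, 189 and 132 against 408, 302, 537 and 788 (adjusted p = 0.0564, limma). These 2 genes were named after their values were seen. Members of a list share their libraries and are not replicates of each other.

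Summed over the mitosis and spindle list, the aged Trem1-/- libraries held 1788, 1722 and 1253 normalized counts and the young 3527, 2610, 4272 and 6909. For DNA replication and S phase the sums were 1871, 1865 and 1865 against 2814, 2474, 3791 and 4837. Every young sum lay above every aged Trem1-/- sum on both lists, and young E was the highest on each. In aged wild type the lists had median differences from young of -2.18 and -0.99. In RNA from whole samples, fewer dividing cells and less RNA per dividing cell cannot be told apart. The count of called members of the 2 lists depended on the libraries and the tool: it was 4 here, 34 with DESeq2, 3 with edgeR and 20 when the 3 aged wild-type libraries were left out of the fit, 0 without aged Trem1-/- replicate 1, 2 or 3 or young C, 1 without young A or E, 17 without young B, and 11, 14 and 3 without aged wild type 3, 4 and 6.

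**Figure D2:**
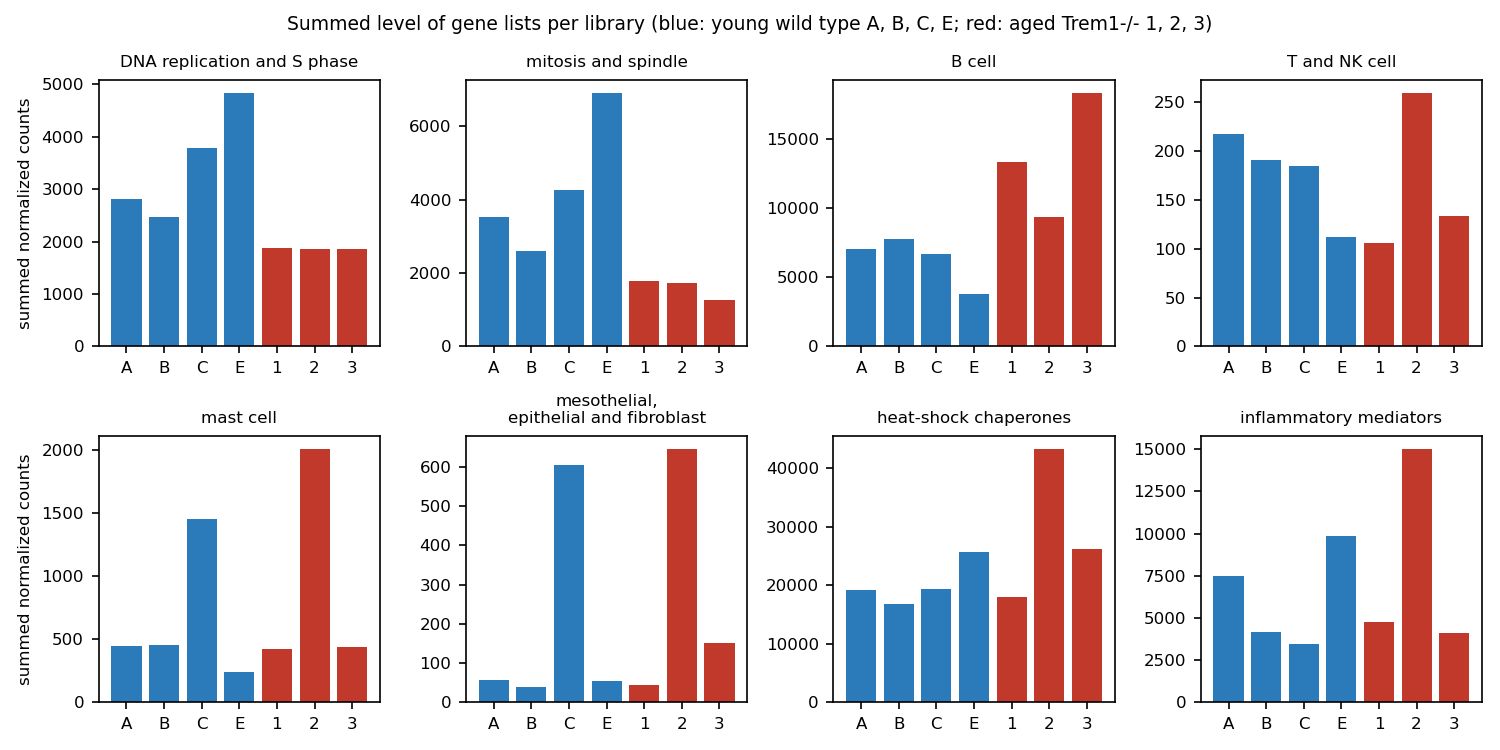
Summed normalized counts of 8 gene lists in each of the 7 libraries (bars; blue for young wild type A, B, C and E, red for aged Trem1-/- 1, 2 and 3; each axis starts at 0). The 3 red bars lie below every blue bar for both cell-cycle lists and above every blue bar for the B cell list, and replicate 2 and young C carry the mast cell and mesothelial signal.

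Lpl, Apoc1 and Igf1 were among the lower genes outside the cell cycle, while the lists they belong to centred near the young level. Lpl, which encodes lipoprotein lipase, was at 1190.3, 426 and 393 normalized counts in aged Trem1-/- libraries and 1902, 2010.5, 2058 and 2734 in the young. Replicate 1 held more than 2 times the level of replicates 2 and 3 and still lay below all young libraries, and the difference was a log2 fold change of -1.88 ± 0.33 (SE; adjusted p = 0.029, limma). Apoc1, which encodes apolipoprotein C-I, was at 2.04, 3.20 and 1.15 against 76.7, 71.4, 129.7 and 16.3 (adjusted p = 0.0265, limma), with young E lowest of the young. The aged Trem1-/- values are near the level of single reads, where the size of the fitted fold change depends on the pseudocount, so it is not given. These 2 were the called members among 22 tested genes of lipid uptake, storage and efflux, whose median was 0.10 and of which 15 lay above 0. Apoe, which encodes apolipoprotein E and lies next to Apoc1 in the genome, was at 45043, 33018 and 35486 against 33164, 48775, 39236 and 20119, with a 95% interval of -0.68 to 0.998 for its log2 difference.

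Igf1, which encodes insulin-like growth factor 1, was at 132, 68.9 and 115 against 297, 352, 263 and 198, a log2 fold change of -1.41 ± 0.29 (SE; adjusted p = 0.0471, limma). It was the called member among 26 tested growth factor, Wnt and matrix genes (median 0.05). Ccr2, the chemokine receptor of monocytes and monocyte-derived macrophages, was at 235, 276 and 206 against 396, 510.5, 404 and 377, a log2 fold change of -0.81 ± 0.14 (SE; adjusted p = 0.029, limma), as the called member among 15 tested small macrophage and monocyte genes (median -0.20). Both genes were lower in all 3 aged Trem1-/- libraries than in any young library. In aged wild type Igf1 was at 47.4, 103 and 62.9 and Ccr2 at 191, 201 and 159.

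Shank3, which encodes a scaffold protein best known from synapses, was at 52.1, 69.7 and 71.1 against 407, 418, 455 and 151, a log2 fold change of -2.35 ± 0.40 (SE; adjusted p = 0.0286, limma). Young E was far below the other young libraries in this gene, whose exons overlap those of Gm15609, and still above every aged Trem1-/- library. Ryr2, which encodes a calcium release channel of the endoplasmic reticulum, was at 41.9, 141 and 97.5 against 431, 376, 300.2 and 291, a log2 fold change of -2.04 ± 0.35 (SE; adjusted p = 0.0286, limma). Ppfia4, which encodes a liprin scaffold protein, was at 26.6, 23.2 and 26.4 against 73.2, 79.4, 74.5 and 84.8, a log2 fold change of -1.58 ± 0.22 (SE; adjusted p = 0.0132, limma). In Ppfia4 each group kept to a narrow range, and aged wild type was at 23.0, 44.7 and 24.3. Among more abundant transcripts outside the naming rule, chosen after their values were seen, Tgfbi, which encodes a matrix protein induced by TGF-beta, was at 755, 1259 and 1294 against 2215, 2289, 2485 and 2876 and Plxdc2, a transmembrane receptor gene, at 1334, 1038 and 1299 against 3206, 3203, 2981 and 3035. Both were lower, with a log2 fold change of -1.19 ± 0.23 (SE; adjusted p = 0.0401, limma) for Tgfbi and a log2 fold change of -1.35 ± 0.24 (SE; adjusted p = 0.029, limma) for Plxdc2.

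B cell genes stood above the young level. Blk, which encodes a SRC-family kinase of B cells, was at 387, 342 and 624 normalized counts in aged Trem1-/- libraries and 212, 220.4, 155 and 102 in the young, a log2 fold change of 1.40 ± 0.27 (SE; adjusted p = 0.0402, limma). Ighd, the constant gene of the IgD heavy chain, was at 228, 245 and 212 against 135, 93.0, 84.1 and 45.3, a log2 fold change of 1.44 ± 0.29 (SE; adjusted p = 0.0471, limma). Pou2af1, which encodes the B cell coactivator OBF-1, was at 349, 332 and 342 against 178, 201, 207 and 110.4, a log2 fold change of 1.01 ± 0.19 (SE; adjusted p = 0.0377, limma). The 3 aged Trem1-/- values of Pou2af1 were close together, at almost 2 times the young mean. Of 21 tested B cell genes these 3 were called higher and none lower, 20 had a difference above 0, 14 had an unadjusted p under 0.05, and the median was 0.93, beside 0.01 over all genes tested (background of higher calls 0.591%). DESeq2 called 10 of the list higher and edgeR 2, and none passed without aged Trem1-/- replicate 1 or 3, young C or aged wild type 6.

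Defining B cell markers did not pass. Cd79a, a signalling chain of the B cell receptor, was at 602, 385 and 985 against 279, 346, 286 and 141 (adjusted p = 0.0955, limma). Ms4a1, which encodes CD20, was at 915, 504 and 1455 against 455, 485, 438 and 257 (adjusted p = 0.13, limma). Replicate 2 had the lowest and replicate 3 the highest level of both markers within the group. Immunoglobulin genes took 0.266, 0.180 and 0.380% of reads in the aged Trem1-/- libraries and 0.122, 0.138, 0.120 and 0.0615% in the young. The groups did not overlap, with a ratio of means of 2.49 (exact two-sided permutation p = 0.0571, the smallest these 7 libraries can give; Benjamini-Hochberg adjusted p = 0.229 over 4 shares of reads). The summed B cell list was 13323, 9364 and 18358 against 7086, 7802, 6720 and 3763. In Cd79a and Ms4a1, as in the B cell genes above and in Cd2 and Itgb7 below, every aged Trem1-/- value lay above every young one. Within the aged Trem1-/- group Blk, Cd2 and Itgb7 shared the replicate order of these markers. Ighd was instead highest in replicate 2 and Pou2af1 in replicate 1. The part of B cell RNA in those results was not tested, and more B cells cannot be told apart from more RNA per B cell. In aged wild type the share of immunoglobulin reads was 0.525, 0.345 and 0.594% and the list's median difference from young was 2.10.

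T and NK cell genes gave no such picture. Of 14 tested, none was called in either direction by limma, DESeq2 or edgeR, 1 had an unadjusted p under 0.05, and the median was -0.10, beside 2.07 for aged wild type minus young. Il2rb, a chain of the interleukin-2 receptor, was at 20.4, 42.5 and 20.6 against 42.7, 34.5, 42.0 and 13.9, and Tcf7, which encodes the T cell factor TCF-1, at 9.20, 40.1 and 19.5 against 30.5, 35.7, 21.6 and 24.4. In both the groups overlapped. Cd2, the adhesion receptor of T cells that mouse B cells also carry, was higher, at 406, 340.5 and 454 against 169.9, 202, 143 and 96.5, a log2 fold change of 1.42 ± 0.23 (SE; adjusted p = 0.021, limma). Itgb7, the beta chain of the integrins of gut homing and of peritoneal lymphocytes, was higher too, at 1606, 1158 and 2160.0 against 855, 742, 811 and 661, a log2 fold change of 1.06 ± 0.18 (SE; adjusted p = 0.0286, limma); it was named after its values were seen.

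Erythroid and platelet genes summed lower in the aged Trem1-/- libraries, at 676, 1634 and 965 normalized counts against 2094, 2131, 3214 and 2924, and the sums did not overlap. Most of each sum was Pf4, the platelet chemokine PF4 that macrophages also make, at 645, 1565 and 942 against 1977, 2033, 2416 and 2907 (adjusted p = 0.0808, limma). All 9 tested members lay below 0, with a median of -1.45, 1 had an unadjusted p under 0.05, and none was called (1 lower with DESeq2, none with edgeR). The erythroid marker Hba-a1, a globin gene, was at 11.2, 24.8 and 8.03 against 54.0, 38.8, 372 and 4.65, with young E below every aged Trem1-/- library and young C far above. The part of erythroid and platelet RNA in the other results was not tested.

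Among the most abundant higher transcripts was that of Cxcl13, which encodes a chemokine that draws B cells and that large peritoneal macrophages make. It was at 1896, 4151 and 5316 normalized counts in aged Trem1-/- libraries against 875, 1054, 462 and 436 in the young, a log2 fold change of 2.40 ± 0.36 (SE; adjusted p = 0.0184, limma). Replicate 1 was the lowest of the 3 and still above every young library, and aged wild type was at 1471, 1727 and 1399. Cxcl13 was the called member among 23 tested genes of large resident peritoneal macrophages. Fgl2, which encodes a fibrinogen-like protein with immune regulatory and prothrombinase forms, was at 491, 502 and 418 against 105, 83.1, 84.1 and 73.2, a log2 fold change of 2.44 ± 0.28 (SE; adjusted p = 0.00819, limma). The lowest aged Trem1-/- value of Fgl2 was about 4 times the highest young one, and aged wild type spread from 160 to 476.

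Several higher genes encode parts of the cell's adhesion and cytoskeletal machinery. Tns1, which encodes tensin 1 of focal adhesions, was at 972, 1005 and 819 against 185, 346, 276 and 189, a log2 fold change of 1.94 ± 0.28 (SE; adjusted p = 0.0132, limma). Tjp1, which encodes the junction scaffold ZO-1, was at 162, 233 and 193 against 98.5, 64.7, 44.4 and 45.3, a log2 fold change of 1.68 ± 0.29 (SE; adjusted p = 0.029, limma). Ahnak2, which encodes a large scaffold protein, was at 350.4, 219 and 749 against 93.3, 119, 103 and 59.3, a log2 fold change of 2.08 ± 0.37 (SE; adjusted p = 0.029, limma). The spread of Ahnak2 within the aged Trem1-/- group was wide, from replicate 2 to replicate 3, whereas Tns1 stayed within a narrow range. In order of level, replicates 2, 1 and 3 of Ahnak2 stood as those of the B cell marker Cd79a did; the part of B cell RNA in this gene was not tested. In aged wild type Ahnak2 was at 1019, 581 and 901. The grouping of these genes was made after the calls were seen.

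Other higher genes act in signalling. Dtx1, which encodes Deltex-1, a ubiquitin ligase of the Notch pathway, was at 113, 119 and 161 against 56.6, 43.1, 31.2 and 22.1, a log2 fold change of 1.81 ± 0.30 (SE; adjusted p = 0.026, limma). Dusp10, a phosphatase of the stress-activated kinases JNK and p38, was at 73.6, 111 and 187 against 55.8, 35.7, 37.2 and 37.2, a log2 fold change of 1.47 ± 0.28 (SE; adjusted p = 0.038, limma). Cd300lf, an inhibitory receptor of myeloid cells, was at 121, 88.9 and 95.2 against 20.9, 36.9, 38.4 and 19.8, a log2 fold change of 1.82 ± 0.37 (SE; adjusted p = 0.0471, limma). Each was lower in every young library than in any aged Trem1-/- one, with the narrowest gap in Dusp10 between young A and replicate 1. Trp53i11, a p53-induced gene, was at 223, 272 and 432 against 120.3, 110.2, 115 and 69.7, a log2 fold change of 1.54 ± 0.27 (SE; adjusted p = 0.029, limma). Dennd5b, which encodes an exchange factor for RAB GTPases, was at 143, 117 and 197 against 37.5, 59.1, 31.2 and 41.8, a log2 fold change of 1.83 ± 0.30 (SE; adjusted p = 0.0237, limma); its exons overlap those of 2 predicted genes. Its replicates stood in the same order of level as those of Cd79a, while Dtx1 and Trp53i11 were lowest in replicate 1. In aged wild type Dennd5b was at 145, 256 and 353, Dtx1 at 434, 234 and 253 and Trp53i11 at 863, 438 and 601. The part of B cell RNA in these genes was not tested. D10Wsu102e was at 341, 310.0 and 429 against 137, 129.9, 181 and 108, a log2 fold change of 1.38 ± 0.28 (SE; adjusted p = 0.0471, limma), and it shares exon sequence with Aldh1l2, a mitochondrial folate enzyme gene at 14.3, 8.81 and 28.7 against 3.49, 3.08, 1.201 and 1.16, so reads of the shared end cannot be assigned to one of the pair. In aged wild type D10Wsu102e was at 3650.3, 1328 and 2424, above every aged Trem1-/- library. Aldh1l2 was the called member among 18 tested integrated stress response and one-carbon genes (median 0.12).

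Further higher genes, named after their values were seen, included some with few counts in the young. Chit1, which encodes the chitinase chitotriosidase of activated macrophages, was at 33.7, 24.8 and 36.7 against 0, 0.616, 0 and 0 (adjusted p = 0.00819, limma). Cubn, which encodes the endocytic receptor cubilin, was at 30.7, 32.0 and 31.0 against 0.872, 1.85, 6.005 and 1.16 (adjusted p = 0.00892, limma). The exons of Cubn overlap those of Gm13270. At the levels of Chit1 and Cubn the size of the fitted fold change depends on the pseudocount of 1 and is not given. Prdm1, which encodes the transcription factor BLIMP-1, was at 74.6, 107 and 74.6 against 14.8, 9.24, 15.6 and 8.14, a log2 fold change of 2.77 ± 0.36 (SE; adjusted p = 0.00905, limma). Sdc4, which encodes the heparan sulphate proteoglycan syndecan-4, was at 70.5, 84.1 and 95.2 against 34.9, 31.4, 36.0 and 31.4, a log2 fold change of 1.28 ± 0.17 (SE; adjusted p = 0.00905, limma). In all 4 genes every young library lay below every aged Trem1-/- library, and in aged wild type Prdm1 was at 64.0, 78.6 and 199 and Chit1 at 7.68, 43.6 and 16.2.

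**Figure D3:**
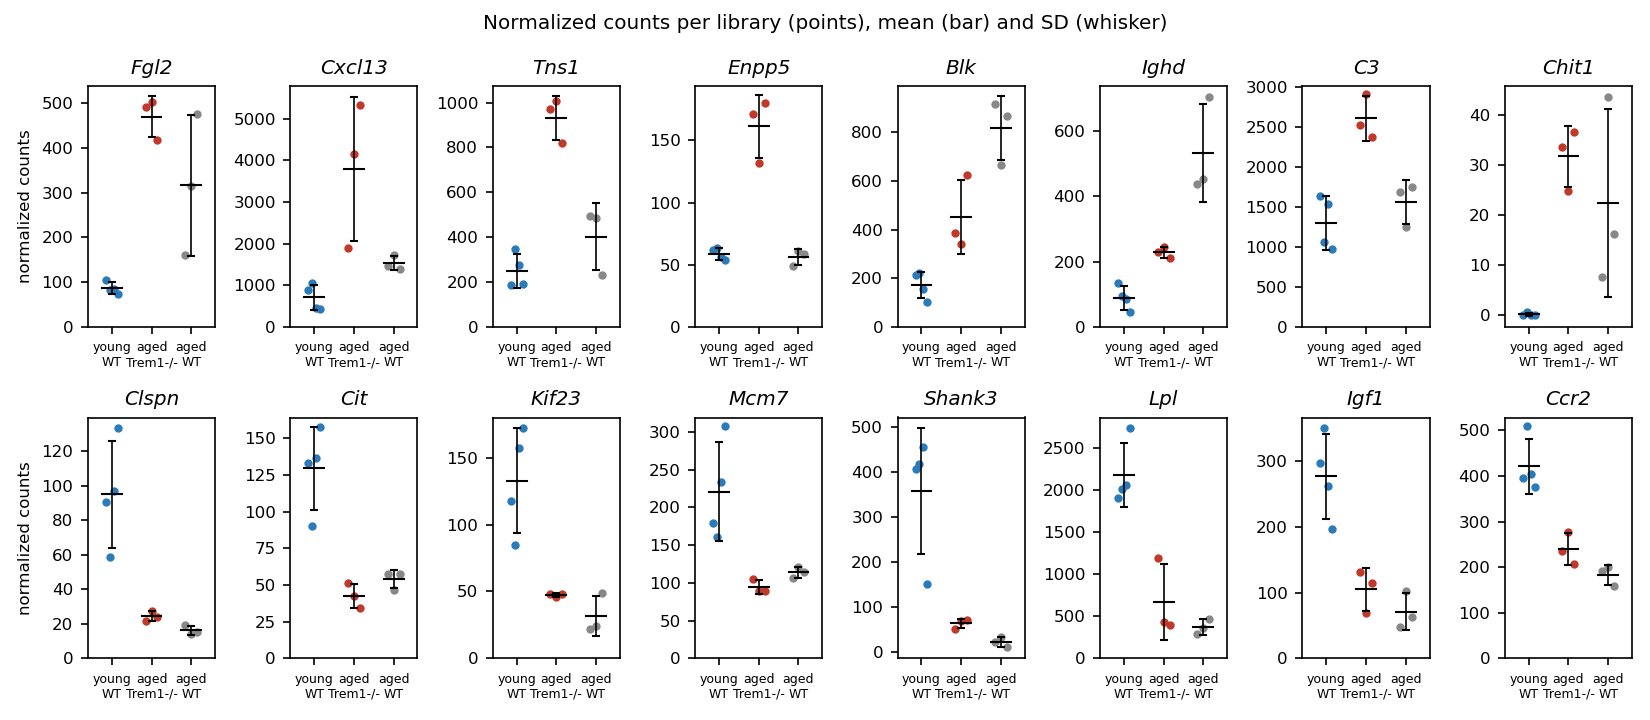
Normalized counts of 16 genes in each library (points), with the group mean (bar) and SD (whisker), for young wild type (blue, n = 4), aged Trem1-/- (red, n = 3) and aged wild type (grey, n = 3). Red and blue points do not overlap in any panel; grey points lie near blue for Enpp5 and near or past red for Blk, Ighd and Clspn.

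A group of named genes was higher than in both other groups of libraries, by the rule that the difference passes the threshold against young and against aged wild type in the same direction; the 2 comparisons share the aged Trem1-/- libraries and are not independent. Enpp5, which encodes a membrane ectonucleotide pyrophosphatase of the ENPP family, was at 172, 132 and 180.1 in aged Trem1-/- libraries, 61.9, 63.4, 56.4 and 53.5 in the young and 48.6, 61.1 and 58.4 in aged wild type. The log2 differences were 1.43 ± 0.15 from young (adjusted p = 0.00819, limma) and 1.502 ± 0.16 from aged wild type (adjusted p = 0.00121, limma). C3, the central component of complement, was at 2525, 2911 and 2374 in aged Trem1-/- libraries, 1636, 1057, 1535 and 968 in the young and 1689, 1245 and 1741 in aged wild type. Its log2 differences were 1.03 ± 0.19 from young (adjusted p = 0.0373, limma) and 0.75 ± 0.21 from aged wild type (adjusted p = 0.0274, limma). It was the called member among 29 tested phagocytic receptor and complement genes (median -0.14). Rfx2, a transcription factor gene of the RFX family, was at 236, 359.7 and 338 in aged Trem1-/- libraries, 166, 119, 125 and 158 in the young and 165, 89.5 and 113 in aged wild type, with log2 differences of 1.12 ± 0.22 and 1.36 ± 0.23 (adjusted p = 0.0404 and 0.00392, limma). In all 3 genes the lowest aged Trem1-/- library lay above the highest of the other 7.

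Aged wild-type libraries held Tjp1 at 39.7, 76.4 and 47.6 and Tns1 at 493, 486 and 229. The aged Trem1-/- level given above was higher by 1.87 ± 0.31 for Tjp1 and by 1.29 ± 0.30 for Tns1 on the log2 scale (adjusted p = 0.00353 and 0.0142, limma). H6pd, an enzyme gene of the pentose phosphate pathway in the endoplasmic reticulum, was at 820.4, 533 and 627 in aged Trem1-/- libraries, 338, 358, 396 and 330.1 in the young and 343, 369 and 370.1 in aged wild type. Its log2 difference was 0.87 ± 0.14 from young and 0.85 ± 0.15 from aged wild type. Cds2, which encodes a CDP-diacylglycerol synthase of phospholipid synthesis, differed by 0.55 ± 0.11 and 0.58 ± 0.12, and Ntng2, a netrin-G gene that shares exon sequence with 6530402F18Rik, by 0.66 ± 0.14 and 0.55 ± 0.14. B2m, the light chain of MHC class I, was named after its values were seen: it was at 3229.6, 3350.5 and 3541 in aged Trem1-/- libraries, 2538, 2229.7, 2503 and 2251 in the young and 2095, 2370.1 and 2361 in aged wild type, with log2 differences of 0.50 ± 0.09 and 0.57 ± 0.10. Its difference from young was the smallest among the 106 called genes. Plcl2, which encodes a phospholipase C-like protein without enzyme activity, was lower than in both groups, at 315, 293 and 318 in aged Trem1-/- libraries, 502, 487, 398 and 497 in the young and 499, 391.8 and 425 in aged wild type, with -0.60 ± 0.12 and -0.50 ± 0.12.

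Enpp5 (chr17:44078813-44086567), Plcl2 (chr17:50509403-50688484), Rfx2 (chr17:56775897-56831013) and C3 (chr17:57203970-57228136) lie on chromosome 17 (GRCm38), as Trem1 does, with starts at -4.15, 2.28, 8.54 and 8.97 Mb from that of Trem1 in genome coordinates. They were the called genes among 124 tested within 10 Mb of Trem1 (3.23%), a window chosen after the calls were seen. On the whole chromosome 7 of 578 tested genes were called (1.21%), and on the other chromosomes together 99 of 10928 (0.906%). The labels give neither the strain of the mutant nor its backcrossing, and the part of the strain background in these genes was not tested.

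**Figure D4:**
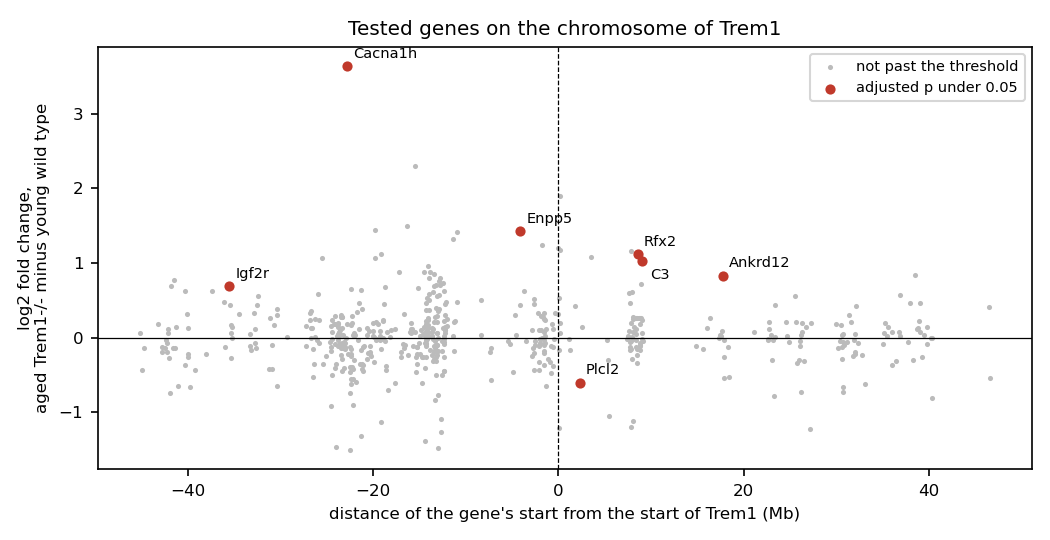
Log2 fold change, aged Trem1-/- minus young wild type, of the 578 tested genes of chromosome 17 (vertical axis), against the distance in Mb of each gene's start from the start of Trem1 (horizontal axis; dashed line at 0). The 7 called genes are red and named, and 4 of them lie within 10 Mb of Trem1.

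By their intervals, genes that mark resident peritoneal macrophages lay about as close to the young level as genes at large. Of 23 tested members of that list, 18 (78.3%) had a 95% interval within 2-fold, beside 76.0% of all genes tested, and the median was 0.09. In 6 of the 23 the groups did not overlap, beside 15.8% of all genes tested. The summed list was 242674, 268161 and 219275 against 268897, 276374, 275151 and 323746, so every aged Trem1-/- sum lay below every young one. The median difference of aged wild type from young on this list was -1.14. Fn1, which encodes fibronectin, was at 163510.0, 184767 and 140937 against 194605, 201352, 198935 and 247959, an interval of -0.87 to 0.12. Prg4, which encodes lubricin, was at 21872, 22666 and 20980.5 against 19439.5, 20934, 19709 and 17394, an interval of -0.18 to 0.53. Gata6, the factor that defines these cells, was at 309, 292 and 352 against 434, 381, 358 and 373 (adjusted p = 0.638, limma), while Timd4, a receptor for phosphatidylserine, was at 914, 518 and 956 against 1781, 1741, 1943 and 718 (adjusted p = 0.288, limma) with young E among the aged Trem1-/- values. In aged wild type Gata6 was at 75.5, 151 and 179.7 and Timd4 at 346, 839 and 513.

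Lists of basic cell functions lay mostly within 2-fold. Of 32 lysosome genes none was called in either direction, 4 had an unadjusted p under 0.05, 31 had an interval within 2-fold, and the median was -0.02, with Psap (prosaposin) at 7713, 6537 and 6605 against 6180.0, 6356, 6269 and 7022. All 47 tested nuclear-encoded respiratory chain genes and all 36 cytosolic ribosomal protein genes lay within 2-fold, with medians of -0.16 and 0.09. Of the respiratory chain genes 43 were below 0, and 4 had an unadjusted p under 0.05. Of the ribosomal protein genes 31 were above 0, and 2 had an unadjusted p under 0.05. Of 21 glycolysis genes none was called, 3 had an unadjusted p under 0.05 and 18 lay within 2-fold, with Gapdh at 2841, 2482 and 2641 against 2507, 2511, 2973 and 3342. By edgeR none of these 4 lists held a call, and by DESeq2 the lysosome list held 1 higher gene, glycolysis 2 higher and the respiratory chain 1 lower. The groups did not overlap in 10 lysosome, 5 respiratory chain, 9 ribosomal protein and 3 glycolysis genes, beside 15.8% of all genes tested. An interval within 2-fold does not exclude a smaller difference.

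**Figure D5:**
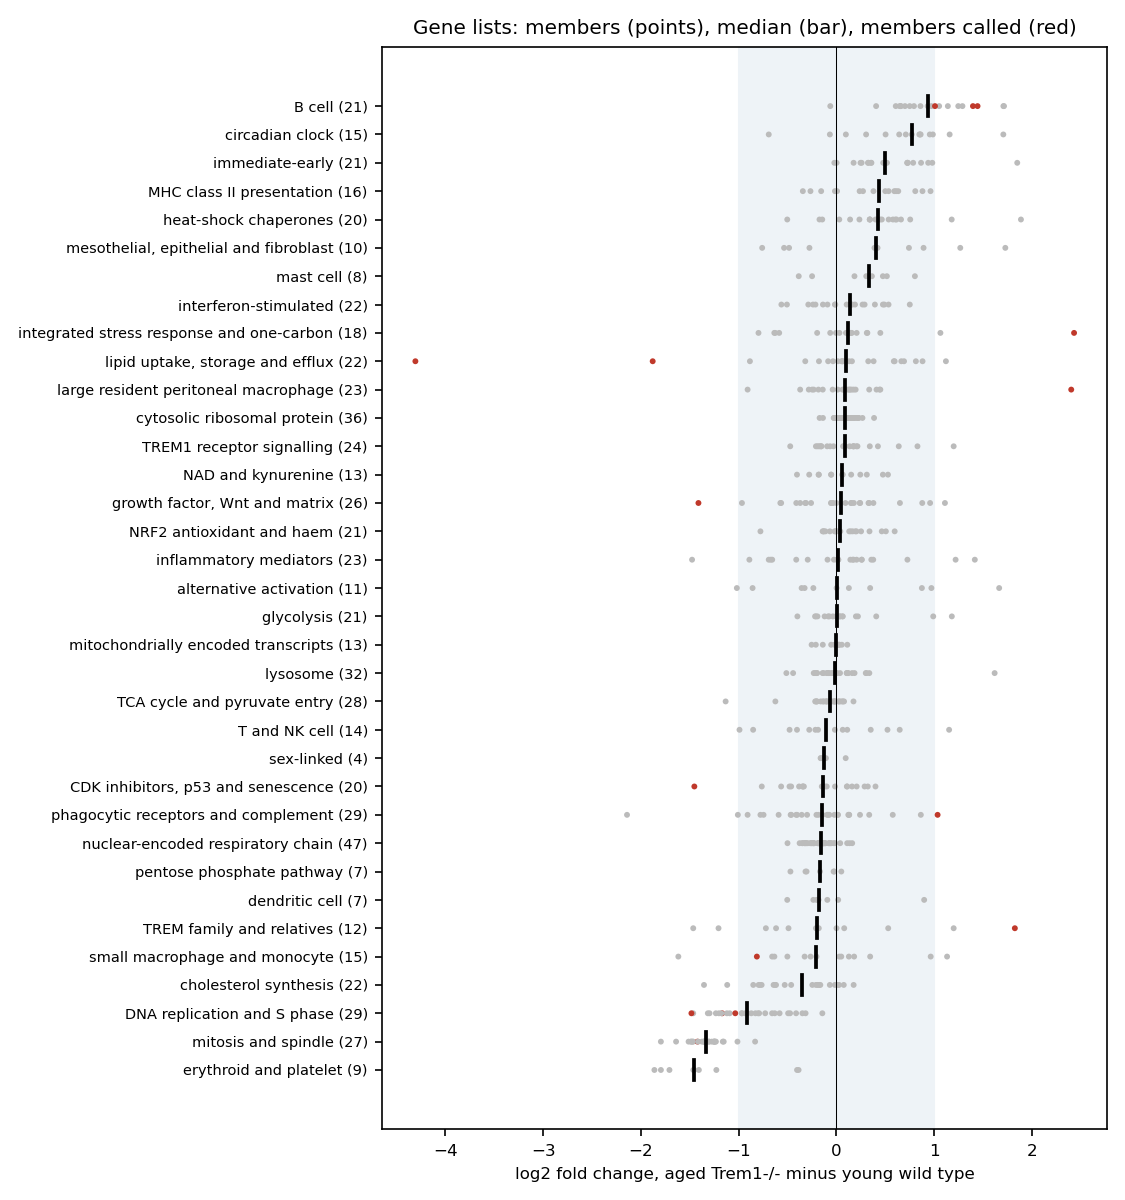
Log2 fold change, aged Trem1-/- minus young wild type, of the tested members of 35 gene lists (points; number tested in brackets), with the median of each list (bar), called members in red and the range within 2-fold shaded. The mitosis (-1.34), S phase (-0.91) and erythroid and platelet (-1.45) lists lie to the left and the B cell (0.93) and circadian clock (0.77) lists to the right.

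By their intervals, genes of the TREM1 pathway lay mostly within 2-fold of the young level. Of 24 tested, none was called in either direction, 22 had an interval within 2-fold, and 3 had an unadjusted p under 0.05. The median was 0.08, and DESeq2 called 2 higher and edgeR none. In 7 of the 24 the groups did not overlap, beside 15.8% of all genes tested. Tyrobp, the adaptor DAP12, was at 1290.4, 1341 and 1069 against 1301, 1391, 1466 and 1534, an interval of -0.53 to 0.11. Syk, the kinase it recruits, was at 3272, 3148 and 3966 against 2478, 2487, 2110.0 and 1849 (log2 difference 0.64 ± 0.14; adjusted p = 0.0618, limma), and Malt1, the paracaspase of the CARD9 complex, at 506, 405 and 705 against 347, 319, 277 and 248 (0.83 ± 0.21; adjusted p = 0.0878, limma). In both the groups did not overlap although neither passed. B cells express these 2 genes as well, and the part of the B cell markers given above was not tested. Card9 was at 231, 228 and 159 against 262, 318, 300.2 and 255, Nfkb1 at 686, 759 and 710.1 against 661, 737, 615 and 608 and Rela at 351, 435 and 383 against 343, 379, 336 and 316, and none of these 3 passed. The groups did not overlap in Card9 and overlapped in Nfkb1 and Rela.

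Among 12 tested relatives of TREM1, Cd300lf was higher and none was called lower. DESeq2 called 1 higher and 1 lower, and edgeR none. Of the 12, 4 had an interval within 2-fold, beside 76.0% of all genes tested, and 4 had an unadjusted p under 0.05. In 4 the groups did not overlap, beside 15.8% of all genes tested. Clec5a, another DAP12-coupled receptor, was at 22.5, 24.03 and 21.8 against 68.0, 56.7, 63.6 and 70.9 (-1.47 ± 0.36; adjusted p = 0.0767, limma). Trem2, the lipid-sensing receptor of the family, was at 62.3, 23.2 and 14.9 against 56.6, 80.7, 68.5 and 60.4 (-1.21 ± 0.44; adjusted p = 0.234, limma). In Trem2 replicate 1 lay among the young values and replicates 2 and 3 below them. Treml2 was at 26.6, 44.1 and 9.18 against 16.6, 14.8, 22.8 and 9.30, and Pilra, an inhibitory receptor, at 319.8, 318 and 403 against 489, 486, 485 and 682. Neither passed, although every aged Trem1-/- value of Pilra lay below every young one.

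Stress genes summed highest in replicate 2. The heat-shock chaperone list summed to 17938, 43295 and 26214 normalized counts in aged Trem1-/- libraries against 19141, 16830, 19398 and 25715. Of its 20 tested genes none was called by limma, DESeq2 or edgeR and 4 had an unadjusted p under 0.05, with a median of 0.42. Immediate-early genes summed to 12624, 30917 and 15267 against 15435, 11807, 10781 and 16751, with none of 21 called (1 higher with DESeq2), 4 at an unadjusted p under 0.05 and a median of 0.50. The 15 tested circadian clock genes had a median of 0.77, 13 above 0 and 10 with an unadjusted p under 0.05, and none was called by limma (2 higher and 1 lower by DESeq2, none by edgeR). Per1, a clock repressor that stress hormones also induce, was at 625, 1001 and 603 against 529.9, 522, 351 and 697, and Clock at 273, 307 and 344 against 343, 327, 298 and 319.6. The time of day of collection is not in the labels, and its part was not tested. Inflammatory mediators had none of 23 called by limma, DESeq2 or edgeR, 2 at an unadjusted p under 0.05 and a median of 0.02. Only 6 of the 23 had an interval within 2-fold, beside 76.0% of all genes tested, so most were not bounded near the young level. Their sums were 4780, 15038 and 4093 against 7513, 4187, 3477 and 9857. MHC class II genes had none of 16 called (2 higher with DESeq2), 7 at an unadjusted p under 0.05 and a median of 0.44, with Cd74, the invariant chain, at 8467, 8697 and 11191 against 6647, 7266, 5945 and 4961.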

How the data were processed

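RNA of 10 peritoneal macrophage samples was extracted with a Qiagen kit, copied to full-length cDNA with a Takara kit and made into libraries with an NEBNext kit, per the labels' protocols. The build GRCm38 and the tools DESeq2 1.20.0, featureCounts 1.5.0-p3, STAR and fastp are named in the submitters' processing notes, without roles or settings; strand-aware counting is not given in the sources used here. The authors deposited 1 table of normalized counts (a signal per gene and library). Every value was a whole multiple of its library's smallest step (100% within 1e-06), so whole reads could be recovered. The authors also deposited a log2 fold change, its standard error and statistic (score columns), p-values and a mean normalized signal for aged against young wild type, which were not used. There were 0 columns of other samples.

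Groups were taken from the labels. Values were tested as log2(normalized count + 1) with limma 3.58.1 (trend) in R 4.3.3, in 1 fit of all 10 libraries with 3 groups, for the 11506 genes with a mean of at least 10, with Benjamini-Hochberg adjustment and a threshold of 0.05. A fold change on this scale understates the change of low genes. "Called" means past this threshold, "higher" and "lower" mean called, and an interval is limma's 95% interval. The script was tested on simulated data. Alternatives were other pseudocounts, filters, TMM rescaling, edgeR 4.0.16 and DESeq2 1.42.0 on recovered reads, the 7 libraries alone, and leaving out each library. Floors of 3 reads cover counting error only. Gene positions and exon overlaps came from GENCODE M21 (53825 of 54532 symbols matched, 98.7%), and promoters from RefSeq by symbol.

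The comparison, the gene lists and the tests were chosen with earlier results of these data known. Named genes were Trem1, the 15 with the largest difference in each direction (called, mean of at least 50 over the 7 libraries, no overlap, no predicted or segment name), up to 8 per direction also past the threshold against aged wild type, called or most abundant members of each list, the 2 most abundant members within 2-fold of lists of 15 or more, and all tested genes of the TREM lists. Some genes are not reported here.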

Additional observations from a re-analysis of the deposited data

Results flagged for a closer look

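In 13 of 149 sets of 4 young wild-type values, 1 library stood so far from the other 3 that its gap to the nearest, divided by the range, passed Dixon's 95% critical value for 4 samples; chance alone does this in about 1 in 20 sets. The groups of 3 were not examined in this way. Young C stood apart in 6 genes and 1 share of reads. It was high in Col3a1, a fibroblast collagen, at 187 normalized counts beside 2.32 to 3.49 in the other 3. Hba-a1, a globin gene, was at 372 beside 4.65 to 54.0, and the share of globin reads was 0.0196% beside 0.000224 to 0.00272%. The mitochondrial genes mt-Co1, at 11710.1 beside 8301 to 8563, and mt-Nd5, at 6658 beside 4379 to 4584, were high there as well. The same library was low in Plcl2, at 398 beside 487 to 502, and in Pik3r1, at 432 beside 542 to 559. Plcl2 is one of the genes called lower in aged Trem1-/- libraries, and its value in young C lay on the side of those libraries.

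Young E stood apart in 5 genes. It was low in Shank3, at 151 beside 407 to 455, and in the B cell gene Bank1, at 504 beside 716 to 749.5. It was high in Pilra, at 682 beside 485 to 489, in Fn1, at 247959 beside 194605 to 201352, and in Cebpg, a partner of the stress factor ATF4, at 285 beside 259.7 to 262. Young A stood apart in Dusp10, at 55.8 beside 35.7 to 37.2.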

How the results depend on the processing

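The 68 higher and 38 lower genes kept their direction in every alternative that tested them. DESeq2 on recovered reads called 253 and 195, the fit of the 7 libraries alone 154 and 145, no filter on low values 161 and 102 of 36939 genes, and a mean of at least 50 called 28 and 8 of 7528. TMM rescaling gave 60 and 38, edgeR 52 and 28, a pseudocount of 0.5 gave 66 and 37, and a pseudocount of 5 gave 74 and 48. Leaving out 1 library gave 0 to 157 higher and 0 to 106 lower genes, and without aged Trem1-/- replicate 3 none passed. DNA replication and mitosis genes called lower were 4 in the fit reported, 34 with DESeq2, 3 with edgeR, 20 without a filter, 20 with the 7 libraries alone, 1 with a mean of at least 50, and 0 to 17 with 1 library left out. Against aged wild type, leaving out 1 library gave 762 to 1782 higher genes (1327 with all) and 318 to 1020 lower ones (785 with all). Genes with intervals inside 2-fold numbered 8740, 8716 with TMM and 8925 with the 7 libraries alone. The ratio of Trem1 means was 3.22, and 1.26 to 4.36 with 1 library left out. Of 2578 values of named genes under these alternatives, 255 lost the call and 32 gained one, and no called gene changed direction. No paired analysis was possible because the groups compared share no replicate labels. Precision rests on 3 and 4 libraries and, for genes near a mean of 10 normalized counts, on few reads.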
